A study of Mus musculus with 8 samples.

Results

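Glycosaminoglycans are long, mostly sulfated sugar chains of the cell surface and extracellular matrix. Hyaluronan is spun out at the plasma membrane without a protein core and without sulfate, whereas heparan sulfate and chondroitin sulfate are built in the Golgi on a common linkage sugar attached to core proteins and are then trimmed, epimerized and sulfated at chosen positions. The pattern of sulfate groups, above all the N-, 2-O, 6-O and 3-O sulfates of heparan sulfate, sets which growth factors the chain can hold, and in the cochlea such chains lie in the basement membranes, the cartilage of the otic capsule and the surroundings of the organ of Corti. The genes described here are the 59 protein-coding genes, of 36536 genes counted, whose symbol in the NCBIM37 annotation names a hyaluronan synthase, a hyaluronidase, a polymerase of heparan or chondroitin sulfate, or one of the sulfotransferases, epimerases and sulfatases that modify the chains. They were chosen by name and not by any measured value, though with earlier results of these data known. The name rule also takes in the *Chst* genes that sulfate keratan sulfate or N-glycans and the enzymes of the HNK-1 sugar epitope, and these are treated apart.

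Counts came from RNA-seq of cells sorted from dissected cochlear tissue of *Lfng-GFP* mice (strain B6;FVB-Tg(Lfng-EGFP)HM340Gsat/Mmucd), a BAC transgenic line in which GFP is driven from the *Lfng* locus of the transgene. All 4 groups carried the transgene and no other treatment: GFP+ and GFP- cells at postnatal day 1 (P1) and at postnatal day 6 (P6), with 2 replicate libraries each. The transgene marks border, inner phalangeal, outer pillar and Deiters' cells and leaves out inner pillar cells, the GFP+ fraction was restricted to the brightest cells, and cells of low GFP were in neither fraction. The bony capsule was taken off at both ages. By the study's methods the P1 organ of Corti and Kölliker's organ were freed of the lateral wall, the stria vascularis and Reissner's membrane, which at P6 were taken away in part. Age and dissection therefore cannot be told apart in the comparisons of ages or in the interaction. Cells of many cochleas were pooled for a library, so a p-value measures the spread between pools.

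Sequencing depth ran from 17769024 to 67695039 gene counts a library. All 6 supporting cell markers examined (*Lfng*, *Hes5*, *Fgfr3*, *Prox1*, *Sox2* and *Cdkn1b*) were higher in GFP+ cells at both ages. All are on the study's own list of supporting cell genes found in these GFP+ cells, and *Lfng* drives the GFP. Their result is therefore no independent test of purity. On that list *Ngfr* at P1 and *Notch1* and *Aqp4* at P6 were not significantly higher in GFP+ cells. The GFP+ libraries also held hair cell transcripts, with 6 of 8 hair cell markers higher than in GFP- cells at P1 and 5 of 8 at P6, and a summed level of 684 to 784 CPM (counts per 1000000 gene counts) against 394 to 455 at P1 and 491 to 522 against 340 to 382 at P6. The P6 GFP+ libraries differed in other cell types. Otic mesenchyme markers summed to 582 CPM in replicate 1 and 2110 CPM in replicate 2, Schwann cell markers to 782 and 2060 CPM and endothelial markers to 36.5 and 140 CPM. The P1 GFP- libraries differed in neuronal markers, at 136 and 456 CPM. In such sorted bulk samples, fewer cells of a type and less RNA per cell cannot be told apart.

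Of the 59 genes, 39 were at or above 1 CPM in every library, 49 reached 5 CPM in at least 1 library, and 5 stayed under 1 CPM throughout (*Hyal4*, *Hyal5*, *Hyal6*, *Hs3st2* and *Ndst4*). Levels of different genes were compared per kb of exon. On that scale *Hs6st1* led in P1 GFP+ cells (68.3 ± 2.95 CPM per kb, SD, n = 2), ahead of *Hs3st1* (40.0 ± 2.67) and *Ndst1* (38.8 ± 1.52), which lay within their spread of each other. *Hs3st1* (77.0 ± 14.0 CPM per kb) and *Hs6st1* (65.8 ± 2.43) headed the P6 GFP+ cells, also within their spread. In GFP- cells the order was led by *Chsy1*, at 54.0 ± 0.348 CPM per kb at P1 and 72.7 ± 9.81 at P6, followed by *Sulf1* at 39.7 ± 9.48 and 54.9 ± 4.97. At P1 *Sulf1* lay within its spread of genes ranked below it, among them *Chst1* (33.9 ± 2.47) and *Ndst1* (33.8 ± 0.0619). Thus heparan sulfotransferases stood at the top in the supporting cell fraction. A chondroitin synthase led in the other cells, with a heparan sulfatase next at P6.

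**Figure D1:**
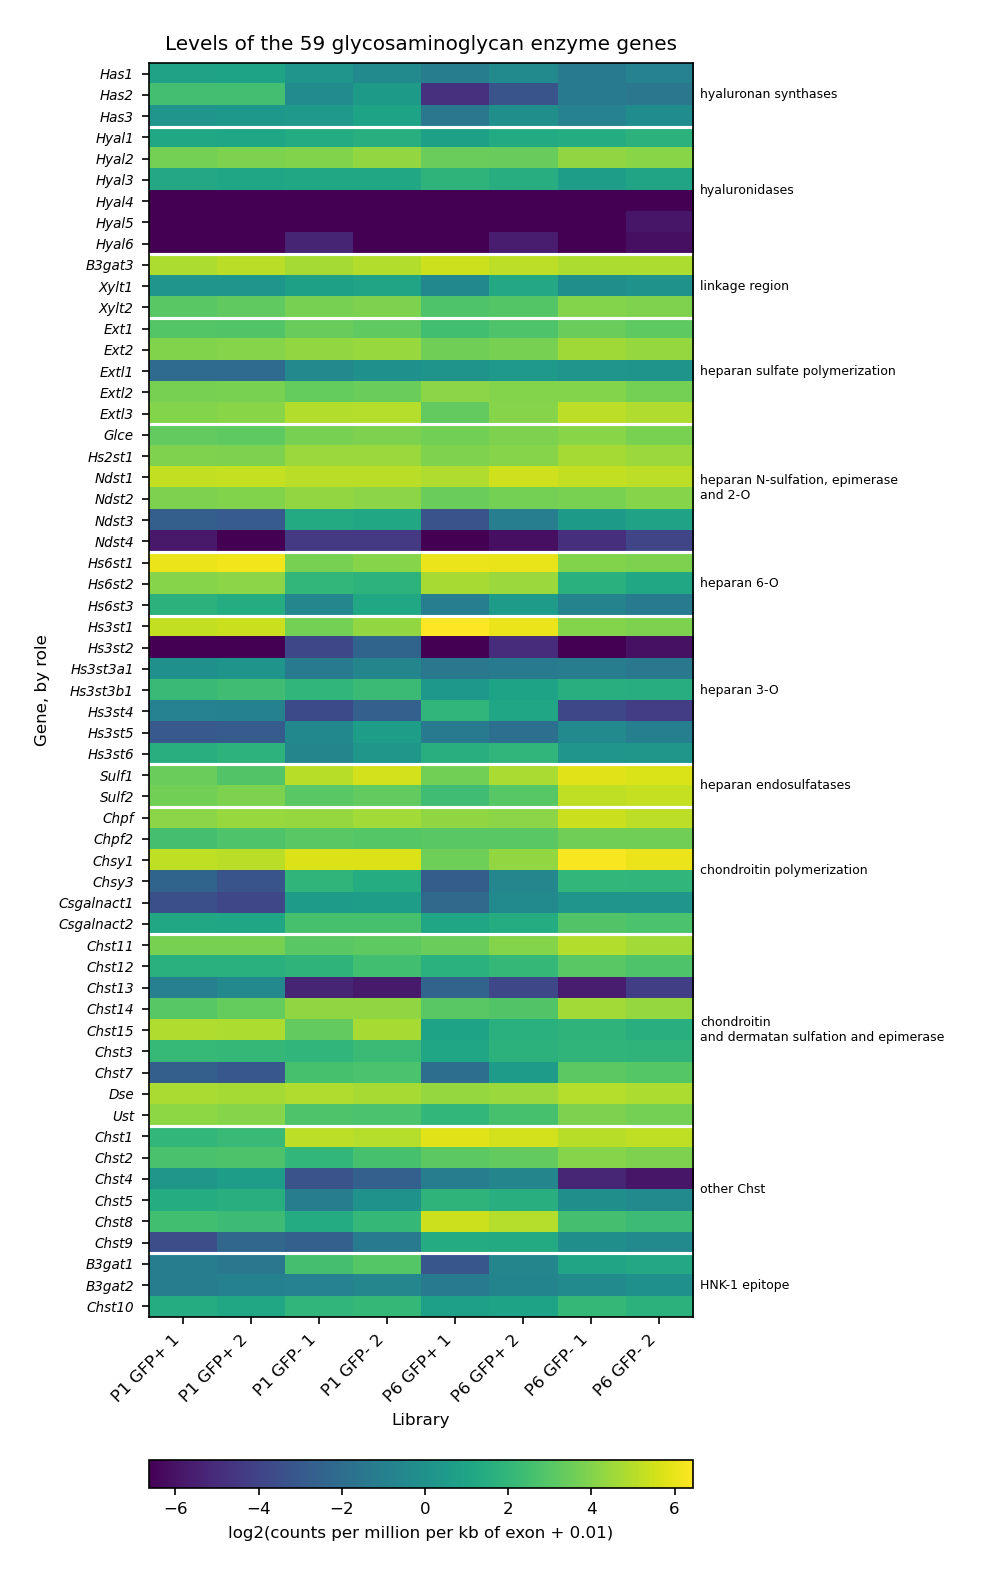
Levels of the 59 genes in the 8 libraries, as log2(CPM per kb of exon + 0.01), with genes grouped by role on the vertical axis and libraries on the horizontal axis. *Hs6st1* and *Hs3st1* are bright in all 4 GFP+ libraries, and *Hyal4*, *Hyal5* and *Hyal6* are dark throughout.

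The first question was which of these enzymes distinguish the GFP+ supporting cells from the other cochlear cells. At P1, 55 of the 59 genes had enough counts to be tested, and the edgeR quasi-likelihood test with Benjamini-Hochberg adjustment over all genes called 13 higher and 16 lower in GFP+ cells at an adjusted p below 0.01. A gene is said to have passed, here and throughout, when it was called by this edgeR test. The DESeq2 test called a larger share of all genes in each comparison. A gene that did not pass may therefore have been called by DESeq2. The edgeR test called 16.6% of all genes tested higher and 20.7% lower. With a fold change above 4 the counts were 7 higher (6.46% of all genes) and 8 lower (11.4% of all genes). At P6, 7 of 53 genes tested were higher, against 7.72% of all genes, and 6 were lower, against 5.19%. All 7 of the higher genes had a fold change above 4 (4.88% of all genes), as did 2 of the lower genes (3.10%). The median log2 ratio of the members was -0.23 at P1, with -0.53 at P6, where the medians of all genes were 0.0075 and -0.017. Scaling by library totals instead of TMM factors moved the split of all calls at P6 from 59.8% to 71.4% higher, and shifted the median of all genes at P1 by -0.10 on the log2 scale.

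The calls rested on 2 libraries a group. All 29 calls at P1 and all 13 at P6 kept their direction when any single library was left out. At P1 the calls of *B3gat1*, *Chst1*, *Chst4*, *Chst7*, *Chst13*, *Chsy3*, *Csgalnact1*, *Csgalnact2*, *Has2*, *Hs6st1*, *Hs6st2*, *Ndst3*, *Sulf1* and *Ust* held in all 4 such fits, and the other 15 were lost without P1 GFP+ replicate 1 (13 of them also without replicate 2). Leaving out either P1 GFP- library raised the counts of members called in both directions, and the shares of all genes called rose too. Leaving out either P1 GFP+ library lowered these counts and shares. At P6, leaving out either GFP- library lowered the counts of members called by edgeR and the shares of all genes called. Without GFP- replicate 2 no gene was called, member or not. Without GFP- replicate 1 the calls of *Hs3st4*, *Hs6st2*, *Chst8* and *Sulf2* held. With P6 GFP+ replicate 2 left out, the library with more mesenchymal and Schwann cell transcripts, 12 members were higher and 27 lower, against 17.9% and 22.6% of all genes, and without replicate 1 they were 10 and 20, against 14.5% and 14.7%.

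**Figure D2:**
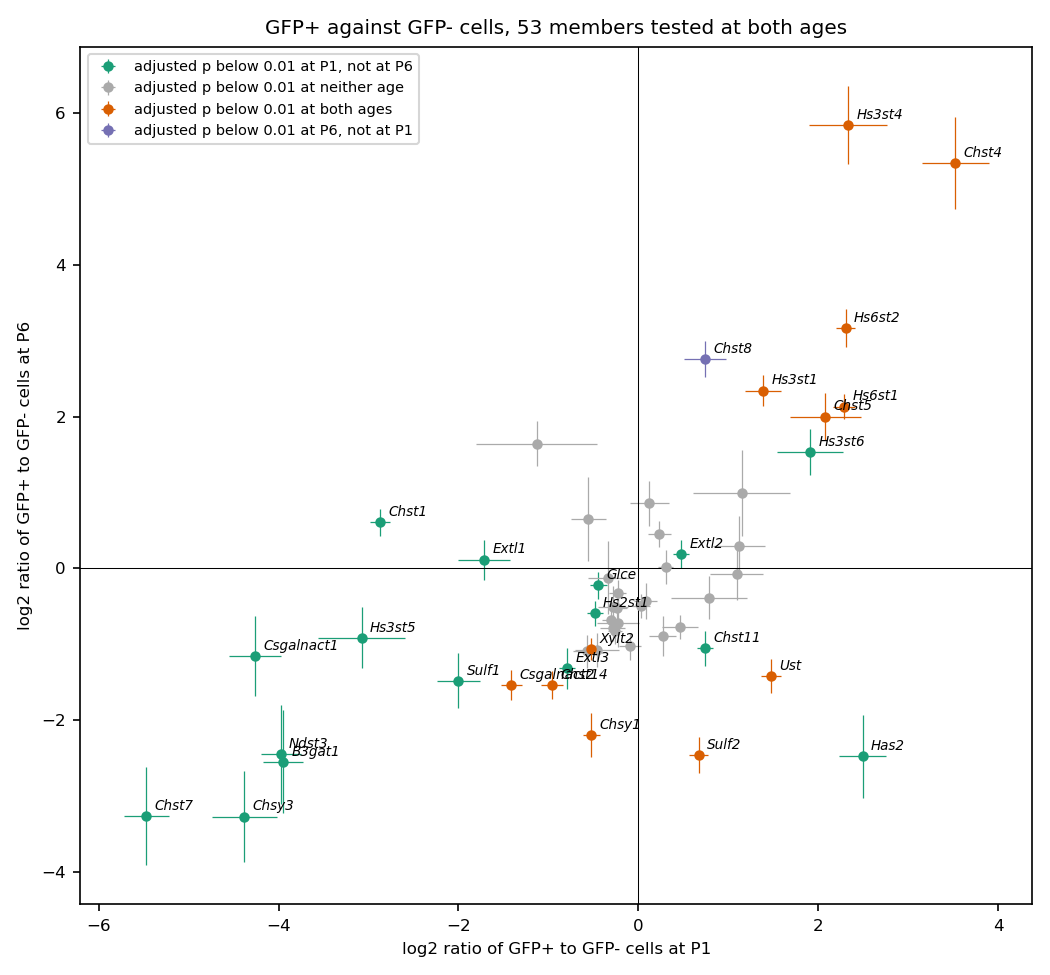
Log2 ratio of GFP+ to GFP- cells at P1 (horizontal) and at P6 (vertical) for the 53 genes tested at both ages, with standard errors as bars and genes past an adjusted p of 0.01 named. *Hs6st1*, *Hs6st2*, *Hs3st1* and *Hs3st4* lie at upper right, whereas *Ust*, *Sulf2* and *Has2* lie above 0 at P1 and below 0 at P6.

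Of the 12 genes called in both comparisons, 6 were higher in GFP+ cells at both ages (*Hs6st1*, *Hs6st2*, *Hs3st1*, *Hs3st4*, *Chst4* and *Chst5*), 4 were lower at both (*Chsy1*, *Csgalnact2*, *Chst14* and *Xylt2*), and 2 were higher at P1 and lower at P6 (*Sulf2* and *Ust*). The share of all genes called at both ages was not counted. These counts therefore do not show a pattern particular to the enzymes. The comparisons of fractions share no library with each other, and each shares its libraries with the comparisons of ages described further on.

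The heparan 6-O-sulfotransferases add sulfate to position 6 of glucosamine, a group needed for many fibroblast growth factors to bind together with their receptors. Their summed level per kb of exon was 86.6 and 91.2 CPM per kb in P1 GFP+ libraries and 18.3 and 22.3 in P1 GFP- libraries, and 94.3 and 87.6 against 19.3 and 16.9 at P6. *Hs6st1* (NCBIM37, chr1:36125245-36163291, plus strand) was at 246 and 262 CPM in P1 GFP+ cells, 50.2 and 61.4 CPM in P1 GFP- cells, 251 and 238 CPM in P6 GFP+ cells and 57.9 and 53.3 CPM in P6 GFP- cells. The GFP+ libraries lay far above all GFP- libraries and the ages overlapped. Its log2 ratio of GFP+ to GFP- cells was 2.29 ± 0.12 (SE) at P1 (adjusted p = 4.12e-05) and 2.13 ± 0.17 at P6 (adjusted p = 0.00132). *Hs6st2* (chrX:48740389-49035033, minus strand) was at 133 and 141, 32.0 and 27.7, 205 and 173, and 24.7 and 17.0 CPM in the same order of groups. Here too the fractions were apart at both ages, by 2.30 ± 0.11 on the log2 scale at P1 (adjusted p = 2.91e-05) and 3.17 ± 0.25 at P6 (adjusted p = 0.00137). *Hs6st3*, the third member of the family, ranged from 0.561 to 4.84 CPM and did not pass in either fraction comparison.

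The 300-base windows at the RefSeq start sites of both genes run from 250 bases before to 50 after the start in GRCm38.p6. They are shown because both genes were higher in GFP+ cells at both ages. The window of *Hs3st4*, the 3-O-sulfotransferase with the highest ratio at P6, is shown with them. Capitals mark GGGCGG or its complement CCGCCC, the letters of the GC box bound by Sp1 factors. RefSeq lists 2 start sites for *Hs6st2*.
Hs6st1, chr1:36068150-36068449, plus strand: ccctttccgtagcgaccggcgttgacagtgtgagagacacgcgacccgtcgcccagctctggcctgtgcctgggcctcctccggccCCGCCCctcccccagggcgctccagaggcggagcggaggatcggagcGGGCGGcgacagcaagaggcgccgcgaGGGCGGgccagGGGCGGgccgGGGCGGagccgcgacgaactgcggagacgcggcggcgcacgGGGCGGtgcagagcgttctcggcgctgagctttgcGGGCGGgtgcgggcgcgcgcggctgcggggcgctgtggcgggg
Hs6st2, first site, chrX:51681553-51681852, minus strand: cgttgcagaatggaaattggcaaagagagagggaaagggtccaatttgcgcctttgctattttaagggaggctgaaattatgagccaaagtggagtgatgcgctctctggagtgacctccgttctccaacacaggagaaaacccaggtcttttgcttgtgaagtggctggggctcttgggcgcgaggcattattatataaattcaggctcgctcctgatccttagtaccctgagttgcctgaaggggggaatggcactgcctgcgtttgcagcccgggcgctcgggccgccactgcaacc
Hs6st2, second site, chrX:51680428-51680727, minus strand: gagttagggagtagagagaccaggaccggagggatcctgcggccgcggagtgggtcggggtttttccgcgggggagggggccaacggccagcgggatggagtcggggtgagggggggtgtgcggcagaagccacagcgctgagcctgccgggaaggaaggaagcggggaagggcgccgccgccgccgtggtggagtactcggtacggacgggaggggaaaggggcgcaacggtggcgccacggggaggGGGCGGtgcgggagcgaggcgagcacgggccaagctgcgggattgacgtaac
Hs3st4, chr7:123982578-123982877, plus strand: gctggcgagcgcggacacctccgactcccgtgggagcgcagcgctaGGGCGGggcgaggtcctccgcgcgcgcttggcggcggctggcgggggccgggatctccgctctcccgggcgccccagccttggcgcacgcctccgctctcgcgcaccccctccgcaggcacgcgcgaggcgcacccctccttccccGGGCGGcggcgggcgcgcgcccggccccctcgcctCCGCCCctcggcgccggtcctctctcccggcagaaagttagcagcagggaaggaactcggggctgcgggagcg

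The GC box letters occurred 7 times in the *Hs6st1* window, 3 times in that of *Hs3st4*, 1 time at the second *Hs6st2* site and 0 times at the first, and 35.7% of the 32851 promoter windows of all genes hold them on either strand. The window of *Hs3st1*, searched but not shown, held them 0 times. The first *Hs6st2* site, which is the poorest of these windows in G and C (53.7%, against 78.0% for *Hs6st1* and a median of 52.7% over all windows), holds the TATA box letters TATAAA or TTTATA, found in 13.6% of all windows. The RBPJ core TGGGAA or its complement TTCCCA, the site of the Notch pathway's DNA-binding protein, was in none of the windows shown and in 25.6% of all windows. The E-box CACCTG, held by 20.2% of all windows on either strand, the SOX letters AACAAAG, held by 5.85%, and the GATA letters AGATAA, held by 11.2%, were searched as well and were in none of those shown. A match describes the letters and not a bound site.

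The 3-O-sulfotransferases add the rarest sulfate of heparan sulfate, and *Hs3st1* makes the form that binds antithrombin. In this family 3 of 6 genes tested were higher and 1 lower in GFP+ cells at P1 (16.6% and 20.7% of all genes), and 2 were higher at P6 (7.72%). *Hs3st1* (chr5:40005174-40146714, minus strand) was at 84.9 and 93.4 CPM in P1 GFP+ cells and 28.8 and 44.4 CPM in P1 GFP- cells, and at 194 and 150 CPM in P6 GFP+ cells and 35.4 and 32.2 CPM in P6 GFP- cells. It was separate between fractions at both ages, with log2 ratios of 1.38 ± 0.20 (adjusted p = 0.00198) and 2.34 ± 0.21 (adjusted p = 0.00168). *Hs3st4* (chr7:131126383-131542503, plus strand) was a low gene at P1, with 1.77 and 1.69 CPM in GFP+ and 0.211 and 0.491 CPM in GFP- cells, and was at 12.5 and 6.63 CPM in P6 GFP+ and 0.195 and 0.133 CPM in P6 GFP- cells. The log2 ratio was 2.33 ± 0.44 at P1 (adjusted p = 0.00578) and 5.84 ± 0.52 at P6 (adjusted p = 0.00171), and the P1 value became 3.11 without P1 GFP- replicate 2. The difference between the ages in that ratio was 3.50 ± 0.72 with an adjusted p of 0.0284, which missed the threshold by edgeR. DESeq2 called that difference (3.54, adjusted p = 8.34e-05).

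*Hs3st5* (chr10:36226620-36554203, plus strand) went the other way at P1, at 0.502 and 0.562 CPM in GFP+ and 2.93 and 6.66 CPM in GFP- cells (log2 ratio -3.08 ± 0.48, adjusted p = 0.00282, and -2.38 without P1 GFP- replicate 2). At P6 it was at 1.69 and 1.14 CPM against 3.15 and 2.10 CPM. *Hs3st6* passed at P1 with a log2 ratio of 1.91 (2.52 without P1 GFP- replicate 2). *Hs3st3a1*, of whose exons 12.2% overlap another gene, and *Hs3st3b1* did not pass in any comparison, and *Hs3st2*, at 0 in 4 of 8 libraries, was tested for the GFP- cells alone without passing. With age in GFP+ cells edgeR called 0 of the 6 tested, against 4.81% of all genes. An unadjusted p below 0.05 was found for 5 of them and for 6575 of all 17213 genes tested. DESeq2 called 3 of them and 17.6% of all genes. By DESeq2 *Hs3st3b1* fell (log2 change -1.54, adjusted p = 3.99e-06), from 21.9 and 26.2 to 6.08 and 9.31 CPM. *Hs3st1* (1.05, adjusted p = 1.92e-05) and *Hs3st4* (2.57, adjusted p = 4.42e-07) rose by that test.

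The endosulfatases Sulf1 and Sulf2 are secreted enzymes that take 6-O-sulfate off finished chains and so act opposite to the 6-O-sulfotransferases. *Sulf1* (chr1:12708626-12850452, plus strand) was at 49.7 and 34.6 CPM in P1 GFP+ cells and 152 and 214 CPM in P1 GFP- cells, a log2 ratio of -2.00 ± 0.24 (adjusted p = 0.000931). In P6 GFP+ cells it was at 57.6 and 125 CPM, against 269 and 237 CPM in P6 GFP- cells. The ratio of -1.48 ± 0.36 did not pass (adjusted p = 0.0281), while DESeq2 called it (-1.46, adjusted p = 0.001). The higher of these P6 GFP+ values came from the replicate with the higher mesenchymal sum, whose part in it was not tested. *Sulf2* (chr2:165898589-165981163, minus strand) was at 72.9 and 85.2 CPM in P1 GFP+ cells, 49.6 and 56.8 CPM in P1 GFP- cells, 31.5 and 48.2 CPM in P6 GFP+ cells and 211 and 225 CPM in P6 GFP- cells. Its order between fractions turned over between the ages, from a log2 ratio of 0.67 ± 0.11 (adjusted p = 0.00319) to -2.46 ± 0.24 (adjusted p = 0.00215), and the difference of the ratios was -3.15 ± 0.27 (adjusted p = 0.00115). In GFP- cells it rose by 2.23 ± 0.12 from P1 to P6 (adjusted p = 0.000132), while the change in GFP+ cells was -0.90 ± 0.21 (adjusted p = 0.0418).

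The earlier steps of heparan sulfate synthesis were closer between the fractions. Extension by the Ext1-Ext2 polymerase and its Extl relatives summed to 52.8 and 56.0 CPM per kb of exon in P1 GFP+ and 72.1 and 74.2 in P1 GFP- libraries, and to 46.3 and 54.4 against 88.0 and 74.0 at P6. At P1 *Extl3* (log2 ratio -0.79), which begins the chain, and *Extl1* (-1.72) were lower in GFP+ cells and *Extl2* (0.48) was higher. At P6 edgeR called 0 of 5 (12.9% of all genes), where DESeq2 called 2 (26.7% of all genes). An unadjusted p below 0.05 was found for 3 of the 5 and for 8216 of all 18294 genes tested. *Ext1* and *Ext2* had log2 ratios of -0.31 and -0.26 at P1 and of -0.68 and -0.83 at P6 and did not pass. For the N-deacetylase/N-sulfotransferases, the glucuronyl epimerase and the 2-O-sulfotransferase, the sums were 77.3 and 79.2 against 92.4 and 90.1 CPM per kb at P1 and 68.9 and 89.5 against 95.6 and 90.5 at P6. *Ndst1*, the main N-sulfating enzyme of most tissues, was at 249 and 263, 224 and 223, 198 and 293, and 247 and 236 CPM in P1 GFP+, P1 GFP-, P6 GFP+ and P6 GFP- cells and passed in no comparison. *Glce* (-0.45) and *Hs2st1* (-0.48) were slightly lower in GFP+ cells at P1.

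*Ndst3* (chr3:123229084-123393770, minus strand) was the exception among these, at 0.916 and 0.763 CPM in P1 GFP+ against 15.5 and 13.5 CPM in P1 GFP- cells (log2 ratio -3.98 ± 0.22, adjusted p = 5.29e-05) and at 0.563 and 2.98 against 8.56 and 11.6 CPM at P6. *Ndst2* did not pass, and *Ndst4* had at most 30 counts in a library. The linkage sugar, with which both heparan and chondroitin sulfate begin, had genes that differed between the fractions and genes that did not pass. *B3gat3*, which adds its last sugar, was at 45.3 and 55.2, 41.7 and 49.8, 68.9 and 56.7, and 45.5 and 45.9 CPM in the same order of groups and passed in no comparison. *Xylt2*, which adds the first sugar to the core protein, was lower in GFP+ cells at both ages (log2 ratios -0.53 and -1.06), and *Xylt1*, at 2.59 to 9.04 CPM, did not pass.

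Chondroitin sulfate is polymerized by pairs of the Chsy and Chpf proteins after a Csgalnact enzyme has added the first N-acetylgalactosamine. None of the 6 genes was higher in GFP+ cells (16.6% of all genes at P1 and 7.72% at P6), and 4 were lower at P1 (20.7%) and 2 at P6 (5.19%). *Chsy1* (chr7:73254401-73318675, plus strand) was at 150 and 142 CPM in P1 GFP+ cells, 224 and 226 CPM in P1 GFP- cells, 49.3 and 83.8 CPM in P6 GFP+ cells and 332 and 274 CPM in P6 GFP- cells. Its log2 ratio was -0.52 ± 0.09 at P1 (adjusted p = 0.00435) and -2.20 ± 0.29 at P6 (adjusted p = 0.00516). The difference of -1.69 missed the threshold by edgeR (adjusted p = 0.0213) and was called by DESeq2 (-1.67, adjusted p = 7.89e-05). *Chsy3* (chr18:59335055-59570100, plus strand) was at 0.524 and 0.281 CPM in P1 GFP+ and 11.2 and 8.11 CPM in P1 GFP- cells, a log2 ratio of -4.38 ± 0.36 (adjusted p = 0.000218) that became -5.00 without P1 GFP+ replicate 1. *Csgalnact1* (chr8:70880680-71259045, minus strand) was at 0.393 and 0.281 against 6.91 and 7.61 CPM (log2 ratio -4.26 ± 0.29, adjusted p = 9.78e-05). Both were nearly silent in the P1 supporting cell fraction. At P6 *Chsy3* was at 0.394 and 1.91 CPM in GFP+ and 12.0 and 11.4 CPM in GFP- cells, and *Csgalnact1* at 1.07 and 3.62 against 5.32 and 5.30 CPM. *Csgalnact2* was lower at both ages (log2 ratios -1.41 and -1.54), whereas *Chpf* (-0.09 and -1.03) and *Chpf2* (-0.23 and -0.53, with 45.9% of its exon bases shared with another gene) did not pass in either. DESeq2 called *Chpf* lower in GFP+ cells at P6 (adjusted p = 0.000215).

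*Chst7*, *Ndst3*, *Chsy3*, *Csgalnact1* and *B3gat1* had the lowest log2 ratios at P1. In P6 GFP+ cells each was higher in replicate 2, the library with more mesenchymal, Schwann cell and endothelial transcripts, than in replicate 1. All 6 otic mesenchyme markers, all 5 Schwann cell markers and all 4 endothelial markers were lower in GFP+ cells at P1 too, with mesenchymal sums of 206 and 211 CPM in GFP+ and 9870 and 8700 CPM in GFP- libraries. *Tbx15* was the mesenchymal marker at 0 in a library, P6 GFP+ replicate 1. The part of these cell types in the low ratios was not tested.

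Of the 9 enzymes tested that sulfate or epimerize chondroitin and dermatan sulfate, 3 were higher and 2 lower in GFP+ cells at P1 (16.6% and 20.7% of all genes). Of 8 tested at P6, 2 were lower (5.19%). The 4-O-sulfotransferase *Chst11* was higher in GFP+ cells at P1, with 75.4 and 74.7 CPM against 46.6 and 49.9 CPM (log2 ratio 0.74 ± 0.09, adjusted p = 0.000843). At P6 it was at 60.7 and 88.6 against 168 and 139 CPM, below the GFP- libraries without passing (-1.05, adjusted p = 0.0199). DESeq2 called it lower there (-1.03, adjusted p = 0.00197). The difference of the ratios was -1.81 ± 0.26 by edgeR (adjusted p = 0.00739). *Chst14*, which sulfates dermatan sulfate, was lower in GFP+ cells at both ages (-0.96 and -1.54), and *Dse*, the dermatan epimerase, passed in no comparison, at 88.3 to 135 CPM over all libraries. The 6-O-sulfotransferase *Chst7* (chrX:19636686-19674647, plus strand) had the lowest ratio of all members at P1, with 0.327 and 0.241 CPM in GFP+ and 13.7 and 14.7 CPM in GFP- cells (-5.47 ± 0.25, adjusted p = 2.84e-05). At P6 it was at 0.563 and 3.15 against 19.6 and 17.5 CPM (-3.26 ± 0.65, adjusted p = 0.0154). DESeq2 called this P6 ratio (-3.30, adjusted p = 2.02e-06). *Chst3*, the other 6-O-sulfotransferase for chondroitin, was at 27.8 and 27.7 against 25.3 and 30.9 CPM at P1 and did not pass.

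*Ust*, the uronyl 2-O-sulfotransferase of chondroitin and dermatan sulfate, is given in full after its values were seen, because it passed in all 4 comparisons and in the test of their difference. In the order P1 GFP+, P1 GFP-, P6 GFP+ and P6 GFP- it was at 80.7 and 71.6, 30.2 and 28.9, 17.6 and 26.5, and 61.3 and 56.3 CPM (chr10:7924551-8238623, minus strand). The fractions exchanged places without overlap. The log2 ratio of GFP+ to GFP- cells was 1.47 ± 0.11 at P1 (adjusted p = 0.000143) and -1.42 ± 0.22 at P6 (adjusted p = 0.0081). It fell by 1.70 ± 0.21 with age in GFP+ cells (adjusted p = 0.00925) and rose by 1.19 ± 0.12 in GFP- cells (adjusted p = 0.00142), and the difference between the ratios was -2.91 ± 0.26 (adjusted p = 0.00134).

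*Chst15* adds a second sulfate to 4-sulfated chondroitin, the disulfated form called chondroitin sulfate E. It was at 161 and 153 CPM in P1 GFP+ cells, 52.3 and 144 CPM in P1 GFP- cells, 10.3 and 17.1 CPM in P6 GFP+ cells and 19.3 and 16.4 CPM in P6 GFP- cells (chr7:139427463-139508911, minus strand). All P1 libraries were above all P6 libraries. In GFP+ cells it fell by 3.42 ± 0.25 on the log2 scale (adjusted p = 0.00288). In GFP- cells the difference was -2.27 ± 0.42 and missed the threshold by edgeR (adjusted p = 0.0127), while DESeq2 called it (-2.26, adjusted p = 0.00559). The P1 GFP- replicates were unequal. Their neuronal marker sums were 136 and 456 CPM in the same order, a link that was not tested. *Chst12* did not pass in any comparison. DESeq2 called it lower in GFP+ cells at P6 (adjusted p = 0.00136) and higher at P6 than at P1 in GFP- cells (adjusted p = 0.00189). *Chst13* was counted 38 and 29 times in the P1 GFP+ and 1 and 1 times in the P1 GFP- libraries, a ratio of CPM of 47.8 (95% exact interval from 12.7 to 403, counting error only).

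**Figure D3:**
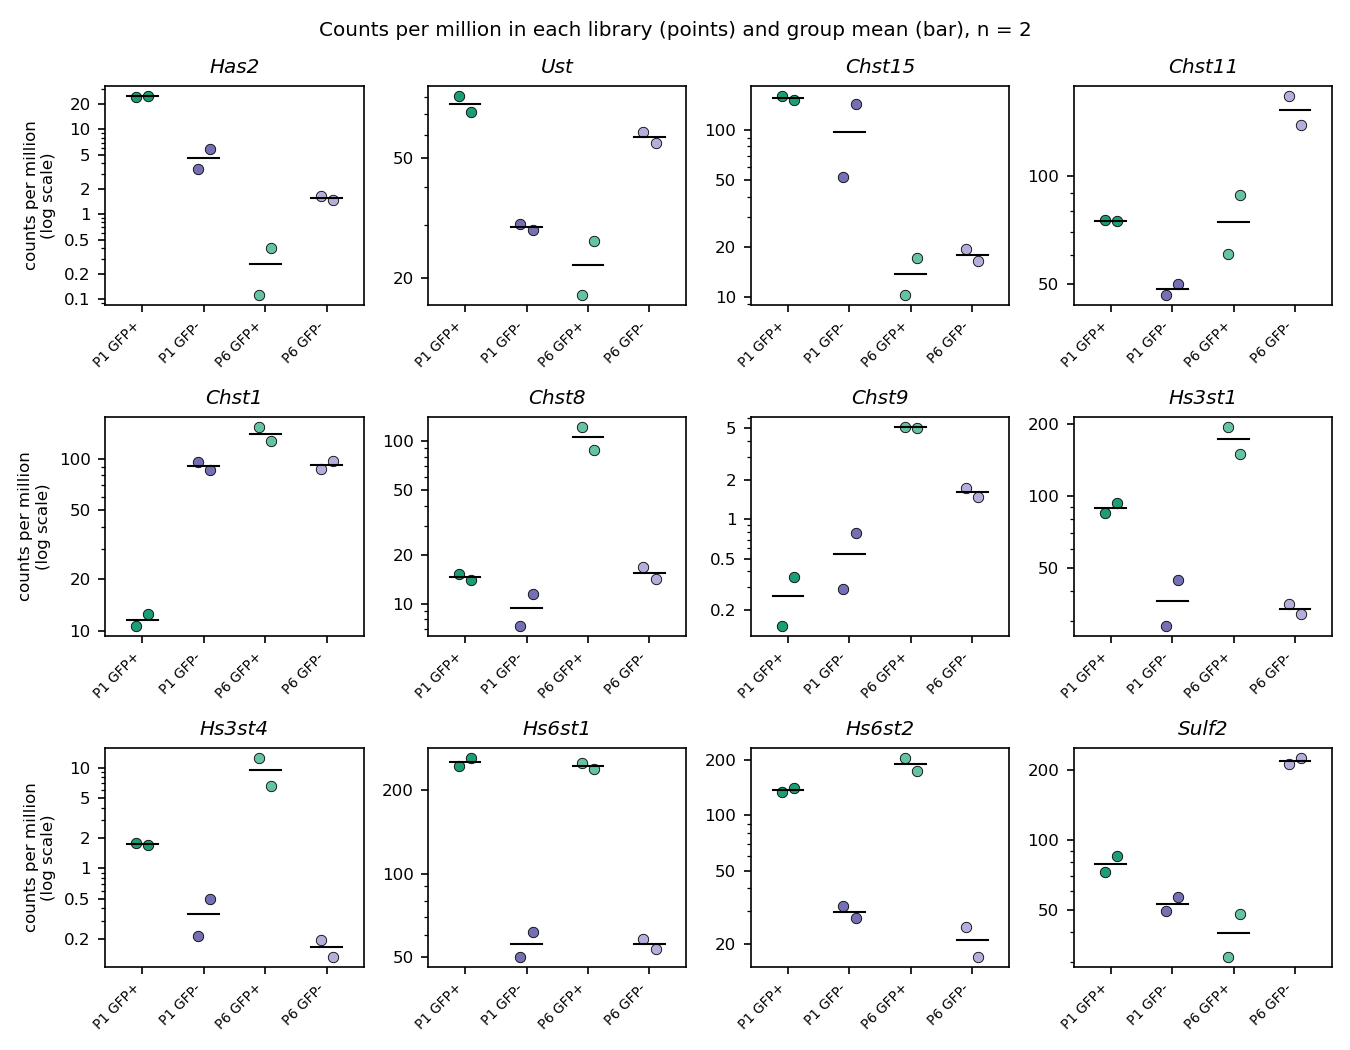
CPM in each library (points) with group means (bars, n = 2) on a log scale, for 12 of the genes described. *Hs6st1* and *Hs6st2* are high in GFP+ libraries at both ages, *Ust* and *Sulf2* change order between the ages, and *Has2* is lowest in P6 GFP+ cells.

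Hyaluronan is made by 3 synthases, of which *Has2* is the one that embryos need. *Has2* (chr15:56497182-56526094, minus strand, with 4.30% of its exon bases shared with the antisense gene *Has2as*) was at 24.1 and 24.8 CPM in P1 GFP+ cells and 3.38 and 5.86 CPM in P1 GFP- cells, a log2 ratio of 2.49 ± 0.26 (adjusted p = 0.000576). It was at 0.113 and 0.402 CPM in P6 GFP+ cells, which is 2 and 12 counts, and at 1.65 and 1.48 CPM in P6 GFP- cells. The fraction with the most *Has2* at P1 thus had the least at P6. The P6 ratio itself did not pass (-2.48 ± 0.55, adjusted p = 0.0208), while DESeq2 called it (-2.51, adjusted p = 0.00571). With age the gene fell by 6.32 ± 0.42 on the log2 scale in GFP+ cells (adjusted p = 0.00273), and the value was -7.59 without P6 GFP+ replicate 2. The change in GFP- cells was -1.37 ± 0.33 (adjusted p = 0.0317), and the difference of the fraction ratios was -4.97 ± 0.58 (adjusted p = 0.00339). *Has1* was at 3.82 and 4.06 CPM in P1 GFP+ and at 0.957 and 1.51 CPM in P6 GFP+ cells, and *Has3* at 6.70 and 7.43 and at 2.08 and 5.32 CPM. Neither passed by edgeR in any comparison, while DESeq2 called *Has3* lower at P6 than at P1 in GFP- cells (log2 change -1.05, adjusted p = 0.0054). The 3 synthases together gave 8.65 and 9.05 CPM per kb of exon in P1 GFP+ libraries and 0.837 and 1.72 in P6 GFP+ libraries.

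The hyaluronidases, which cut hyaluronan, were called by edgeR in 0 comparisons. At P6, 2 of the 3 tested had an unadjusted p below 0.05 between the fractions, as did 8216 of all 18294 genes. DESeq2 called 1 there, against 26.7% of all genes. In the other comparisons both counts were 0. *Hyal2*, a membrane-anchored form that cuts long chains, was at 24.3 and 27.2, 29.6 and 37.7, 20.9 and 19.8, and 36.8 and 33.1 CPM in P1 GFP+, P1 GFP-, P6 GFP+ and P6 GFP- cells. It was below both GFP- libraries of the same age in each GFP+ library, with log2 ratios of -0.29 (adjusted p = 0.14) and -0.79 (adjusted p = 0.0185). *Hyal1*, the lysosomal form, with 52.3% of its exon bases shared with another gene, was at 6.53 to 12.7 CPM and *Hyal3* at 3.08 to 7.20 CPM. *Hyal4* was counted 0 times in every library, which allows a level of up to 0.0443 CPM in the deepest and 0.169 CPM in the shallowest library (3 counts, counting error only), and *Hyal5* and *Hyal6* had at most 2 counts in a library.

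The next question was how the enzymes change as supporting cells mature. In GFP+ cells 54 members were tested between P6 and P1, of which 4 rose (*Chst9*, *Chst1*, *Chst8* and *Extl1*, against 2.86% of all genes) and 3 fell (*Has2*, *Chst15* and *Ust*, against 1.95%). All but *Ust* changed more than 4-fold (1.63% of all genes rose and 0.930% fell by as much). In GFP- cells 6 of 55 rose, against 5.04% of all genes, and 1 fell, against 2.34%. *Sulf2* rose there more than 4-fold (1.43% of all genes), with smaller rises for *Chst11* (1.87), *Chst2* (1.83), *Ust* (1.19), *Chpf* (0.96) and *Chpf2* (0.75), all as log2 fold changes, and *B3gat1* fell (-1.50). The median log2 change of members was 0.08 in GFP+ and 0.30 in GFP- cells, where all genes had medians of -0.0024 and -0.022. Library totals in place of TMM factors shifted the GFP- comparison by -0.19 on the log2 scale and its split of calls from 68.3% to 49.5% higher. Leaving out a P1 GFP+ library ended the calls of *Extl1* (either), *Ust* and *Chst9* (replicate 2), and leaving out P6 GFP- replicate 1 ended those of *Chst2*, *Ust*, *Chpf*, *Chpf2* and *B3gat1*, the last 3 also without replicate 2. In GFP+ cells 16 rose and 10 fell without P6 replicate 1 (20.8% and 14.5% of all genes), 15 and 14 without P6 replicate 2 (22.5% and 20.7%) and 2 and 2 without P1 replicate 2 (0.442% and 0.315%). In GFP- cells 6 rose and 7 fell without P1 replicate 1 (7.74% and 7.33% of all genes) and 11 and 2 without P1 replicate 2 (9.39% and 6.18%). Leaving out either P6 GFP- library lowered the counts of members called by edgeR there in both directions, and the shares of all genes called fell too.

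**Figure D4:**
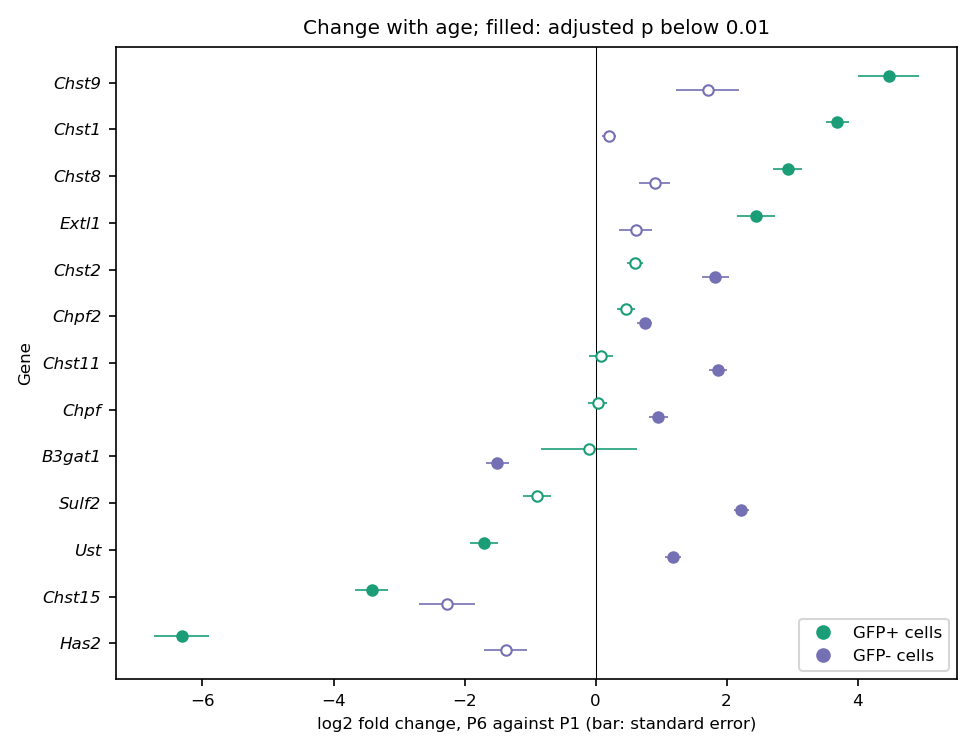
Log2 fold change from P1 to P6 with its standard error for the 13 genes called in either fraction, in GFP+ and GFP- cells, where filled points are past an adjusted p of 0.01. *Chst9*, *Chst1* and *Chst8* rose most in GFP+ cells, *Has2* and *Chst15* fell most, and the *Ust* points lie on opposite sides of 0.

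The genes that rose with age in GFP+ cells were led by sulfotransferases for other sugars. *Chst1* (chr2:92439864-92455407, plus strand) sulfates galactose in keratan sulfate, a chain found on several cochlear matrix proteins. It was at 10.7 and 12.5 CPM in P1 GFP+ cells, 95.6 and 86.3 CPM in P1 GFP- cells, 153 and 127 CPM in P6 GFP+ cells and 86.9 and 96.6 CPM in P6 GFP- cells. The GFP- libraries stayed in one narrow range and the GFP+ libraries went from below to above it. The rise in GFP+ cells was 3.69 ± 0.17 (adjusted p = 0.00181) and the log2 ratio of the fractions was -2.87 ± 0.11 at P1 (adjusted p = 1.89e-05) and 0.60 ± 0.18 at P6 (adjusted p = 0.0473). The difference of the ratios, 3.47 ± 0.21 (adjusted p = 0.000285), held in all 8 fits without 1 library.

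*Chst8* and *Chst9* are closely related enzymes that add 4-O-sulfate to N-acetylgalactosamine at the ends of N-glycans, as on pituitary hormones. *Chst8* (chr7:35459487-35597730, minus strand) was at 15.3 and 14.0 CPM in P1 GFP+, 7.34 and 11.5 CPM in P1 GFP-, 122 and 88.3 CPM in P6 GFP+ and 16.7 and 14.2 CPM in P6 GFP- cells. It rose by 2.93 ± 0.22 in GFP+ cells (adjusted p = 0.00295) and was higher there than in GFP- cells at P6 (2.76 ± 0.23, adjusted p = 0.00152). *Chst9* (chr18:15610433-15918666, minus strand) was at 0.153 and 0.362, 0.290 and 0.792, 5.12 and 5.02, and 1.75 and 1.48 CPM in the same order. Its rise in GFP+ cells was 4.47 ± 0.46 (adjusted p = 0.00573), from 7 and 9 counts at P1, and was 5.08 with an adjusted p of 0.0145 without P1 GFP+ replicate 2. The differences between fractions in their change with age, 2.01 for *Chst8* (adjusted p = 0.0171) and 2.77 for *Chst9* (adjusted p = 0.0658), missed the threshold by edgeR. DESeq2 called both, at 2.04 for *Chst8* (adjusted p = 2e-05) and 2.77 for *Chst9* (adjusted p = 0.00579).

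*Extl1* (chr4:133912287-133939765, minus strand), a relative of the Ext polymerases, was at 1.00 and 1.00 CPM in P1 GFP+, 3.01 and 4.09 CPM in P1 GFP-, 4.67 and 5.66 CPM in P6 GFP+ and 4.86 and 4.65 CPM in P6 GFP- cells. In GFP+ cells it rose by 2.45 ± 0.29 (adjusted p = 0.00762), and at P6 the fractions overlapped. *Chst5* (chr8:114413035-114434099, minus strand), which sulfates N-acetylglucosamine, was separate between fractions and overlapped between ages, at 5.24 and 5.95, 0.844 and 1.93, 6.92 and 5.93, and 1.78 and 1.4 CPM. Its log2 ratios were 2.08 ± 0.39 (adjusted p = 0.00611, and 2.81 without P1 GFP- replicate 2) and 2.00 ± 0.31 (adjusted p = 0.00751). *Chst4* was likewise higher in GFP+ cells at both ages, with 109 and 77 counts against 7 and 19 at P1 and 16 and 36 counts against 2 and 1 at P6, the last a ratio of CPM of 47.1 (95% exact interval from 15.2 to 236, counting error only). *Chst2* was at 39.6 and 42.3, 25.2 and 38.4, 54.6 and 61.6, and 106 and 92.1 CPM.

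The HNK-1 epitope, a sulfated glucuronic acid found on neural adhesion molecules, is made by *B3gat1* or *B3gat2* and then *Chst10*. *B3gat1* (chr9:26541313-26570686, plus strand) was at 2.29 and 1.85 CPM in P1 GFP+ and 29.8 and 39.9 CPM in P1 GFP- cells (log2 ratio -3.95 ± 0.22, adjusted p = 5.33e-05) and at 0.506 and 3.05 against 10.0 and 11.6 CPM at P6 (-2.55 ± 0.68, adjusted p = 0.0353). The P6 ratio did not pass by edgeR and was called by DESeq2 (-2.57, adjusted p = 0.000723). *B3gat2*, of whose exons 33.5% are shared with another gene, was at 2.59 to 5.83 CPM and *Chst10* at 7.88 to 19.8 CPM, and neither passed by edgeR. DESeq2 called *Chst10* lower in GFP+ cells at both ages, with log2 ratios of -0.59 (adjusted p = 0.0064) and -1.08 (adjusted p = 0.00118).

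Whether the ratio of the fractions itself differed between P1 and P6 was tested with the age by fraction interaction in a fit of the 8 libraries. Of 55 members 5 passed, against 1.93% of all genes: *Chst1* in one direction and *Has2*, *Sulf2*, *Ust* and *Chst11* in the other. The median difference of the ratios was -0.30 for members and 0.03 for all genes. With library totals the median of all genes shifted by 0.12 and the split of calls went from 48.9% to 60.2% positive. The calls of *Has2* and *Ust* were lost in 4 of the 8 fits without 1 library, that of *Sulf2* in 2 (without either P6 GFP- library) and that of *Chst11* in 6, and the *Has2* value was -6.25 without P6 GFP+ replicate 2. The count of 5 became 12 and 9 without P6 GFP+ replicate 1 and 2 (6.96% and 5.81% of all genes), 2 and 3 without P1 GFP+ replicate 1 and 2 (0.162% and 0.183%) and 3 without P1 GFP- replicate 2 (0.581%). Without P6 GFP- replicate 1 or 2 it was 1, *Chst1* (0.141% and 0.166% of all genes).

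The genes that supply the chains or carry them were read from lists of non-members. For all these lists, the shares of all genes called were 16.6% higher and 20.7% lower at P1 and 7.72% and 5.19% at P6. Among 16 genes for precursor sugars and activated sulfate, 3 were higher and 3 lower in GFP+ cells at P1, near those shares, and 1 was lower at P6. The largest ratios were those of *Papss2* (log2 ratio -2.42 at P1), which makes the sulfate donor, and *Gfpt2* (-1.24 and -2.45), which feeds the hexosamine pathway. *Papss2* was at 6.35 and 4.70 CPM in P1 GFP+ cells and at an unequal 19.1 and 45.2 CPM in P1 GFP- cells. The higher of these came from the library with more neuronal transcripts, a link that was not tested. Of 5 linkage and epimerase enzymes outside the name rule, *Acpl2* (-1.36 and -1.30 at P1 and P6) and *Dsel* (-1.18 at P1) were lower. Of 13 degrading enzymes tested, 3 were higher and 6 lower at P1 and 2 were lower at P6, led by *Hpse*, the heparanase that cuts heparan sulfate (-3.85 and -2.78).

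Core proteins that carry chondroitin and dermatan sulfate stood lower almost throughout at P1, with 10 of 11 lower and 1 higher in GFP+ cells. *Bgn* (-5.26) and *Acan* (-4.92), proteoglycans of connective tissue and cartilage, had the lowest log2 ratios. The higher one, *Ptprz1*, a receptor phosphatase that carries chondroitin sulfate, was named at P1 after its values were seen. It was at 510 and 481 CPM in P1 GFP+ and 48.5 and 51.8 CPM in P1 GFP- cells and at 190 and 220 against 20.7 and 20.6 CPM at P6, with log2 ratios of 3.41 ± 0.11 and 3.31 ± 0.17. At P6 1 of 11 was higher and 2 were lower, with *Vcan* lowest at -3.40. Acan is also one of the cartilage markers, whose list summed to 5670 and 7110 CPM in P1 GFP+ and 18600 and 18500 CPM in P1 GFP- libraries, and the part of cartilage cells was not tested.

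Among 10 hyaluronan receptors and binding proteins tested, 2 were higher and 6 lower at P1 and 2 were lower at P6. *Tnfaip6*, which crosslinks hyaluronan, was lower at both ages (-6.92 and -3.44), *Hapln1*, a link protein of cartilage, at P1 (-4.71) and *Lyve1*, a receptor of lymphatic vessels and macrophages, at P6 (-3.27). *Hapln1* lay near the 3-count floor in P1 GFP+ cells, at 0.0873 and 0.0803 CPM against an unequal 1.24 and 3.63 CPM in GFP- cells. The level of *Lyve1* was lower at P1 too, at 2.53 and 0.763 against 41.1 and 30.1 CPM. The pair that was higher at P1 was *Tmem2* (2.30), a cell-surface protein that takes part in hyaluronan breakdown, and *Cd44* (1.24), the main hyaluronan receptor, both named after their values were seen. *Cd44* was at 124 and 126 CPM in P1 GFP+ and 60.8 and 52.8 CPM in P1 GFP- cells. Of 3 basement membrane proteins that carry heparan sulfate, *Hspg2* was lower at P1 (-1.73).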

How the data were processed

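RNA was sequenced from GFP+ and GFP- cells of P1 and P6 *Lfng-GFP* cochleas (2 libraries a group, grouped by their labels). The authors deposited raw, unnormalized read counts per Ensembl gene, made, per the submitters' processing notes, with TopHat 1.4.0 on mm9 (NCBIM37) and HTSeq, with DESeq 1.9.2 also named. The methods give a slightly later TopHat release and name DESeq, not HTSeq, for the counts per gene. The library kit did not mark strand and the overlap mode of counting was not given in the sources used here, so overlapping genes (9 members) are uncertain. Reads on no gene, on several genes or aligned at several places (from 23.8% to 35.3% of the listed reads) were left out, as rows that name no gene.

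Members were found by symbol among 34391 annotated genes, with exon lengths from that annotation. For each pair of groups, edgeR 4.0.16 in R 4.3.3 was run on the 4 libraries (filterByExpr, minimum count 10 and total 15, TMM, quasi-likelihood test, Benjamini-Hochberg over all genes tested). Calls used an adjusted p below 0.01, counted again above a fold of 4, after the study's criteria. The standard error is the log2 fold change over the square root of F. The age by fraction interaction used all 8 libraries. CPM are counts per 1000000 gene counts, and figures used Python 3.11.15 with matplotlib 3.10.9. Exact binomial intervals (scipy 1.17.1) and 3-count floors cover counting error only. Replicates correlated at 0.988 to 0.995 and differed by more than sampling noise. On simulated data with 200 changed genes a comparison, 199 or 200 were recovered. The simulation gave all genes the same dispersion and planted changes above the fold of 4 in well-counted genes only. It therefore does not measure how often smaller changes or changes in low genes would be found here. Alternatives were DESeq2 1.42.0, its size factors, library totals, no filter, all 8 libraries in 1 fit, a replicate block and leaving out each library.

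Genes given in full passed both criteria in a comparison and reached 5 CPM in a library; role groups without one gave their highest per-kb member, members past the adjusted p alone were named with their fold change, and each pathway list named its largest 2 past the adjusted p in each fraction comparison. Members and lists were chosen with earlier results of these data known. Promoter windows came from RefSeq (GRCm38.p6), where 45 members matched by symbol, and their coordinates are not those of the counts. A gene of the list of degrading enzymes is included in that list's counts and its values are not reported here.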

Additional observations from a re-analysis of the deposited data

Results flagged for a closer look

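The ratio of GFP+ to GFP- cells differed between P6 and P1 by the interaction test over 8 libraries (edgeR, adjusted p below 0.01) for 5 of the enzymes. As log2 ratio at P6 minus log2 ratio at P1, the differences were -4.97 for *Has2*, -3.15 for *Sulf2*, -2.91 for *Ust*, -1.81 for *Chst11* and 3.47 for *Chst1*. Every group had 2 samples, so no sample could be tested as standing apart from its group.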

How the results depend on the processing

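All counts are of members past an adjusted p of 0.01, and no called value reversed under any alternative. DESeq2 size factors and library totals moved no count beyond 1.5 times. For the other tests and filters, brackets give the share of all genes tested that the same fit called. Members lower in GFP+ cells at P6 numbered 6 (5.19%), and 20 by the DESeq2 test (14.0%), 20 without a filter (11.7%) and 22 with all 8 libraries in 1 fit (14.8%), and above 4-fold 2 (3.10%), then 7 (6.62%), 7 (5.55%) and 7 (6.73%). For P6 against P1 in GFP+ cells, 4 higher (2.86%) became 9 by DESeq2 (11.1%) and 10 without a filter (9.37%), 3 lower (1.95%) became 6 (6.58%) and 10 (6.28%), and above 4-fold 4 higher (1.63%) became 7 without a filter (3.90%). In GFP- cells, 6 higher (5.04%) became 11 (9.79%) and 14 (8.70%), 1 lower (2.34%) became 4 (6.33%) and 6 (6.07%), and 0 with all 8 libraries (1.19%), and above 4-fold 0 lower by edgeR (0.418%) became 1 (0.988%) and 2 (1.07%). By edgeR 32 of 55 members had an unadjusted p below 0.05 there in either direction, as did 6522 of all 18920 genes. The interaction count of 5 (1.93%) became 12 (7.48%) and 21 (8.45%). The causes were not tested.

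Leaving out 1 library at a time gave, at P1, 6 to 21 higher and 8 to 23 lower, and at P6 0 to 12 higher and 0 to 27 lower (above 4-fold, 0 to 7 and 0 to 9). With age it gave in GFP+ cells 2 to 16 higher and 2 to 14 lower (above 4-fold, 2 to 7 higher) and in GFP- cells 2 to 11 higher and 0 to 7 lower (above 4-fold, 1 to 3 and 0 to 3). The interaction count ranged from 1 to 12. The lone sample of the reduced group was taken to vary like the other group. In the same fits the shares of all genes called moved widely as well, so these ranges do not describe the members alone. The shares above 4-fold in these fits are not given here.

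The labels give each group replicates 1 and 2 but no shared origin, and the correlation of same-numbered deviations was 0.02 and 0.08 for the fractions at P1 and P6 and -0.09 and -0.28 for age in GFP+ and GFP- cells, so the numbers were not taken as pairing. A replicate block gave 13 higher and 15 lower members at P1 (15.1% and 19.0% of all genes). At P6 it gave 7 and 9 (7.82% and 7.69%), with 4 lower above 4-fold (5.22%). With age it gave 5 and 4 in GFP+ cells (4.04% and 2.23%) and 5 and 1 in GFP- cells (3.92% and 1.58%). In the interaction it gave 4 (0.785%). Exchanging the replicate numbers of the P6 GFP- libraries in the block, chosen after seeing the data, gave 12 higher and 4 lower with age in GFP- cells. Among all genes the exchanged block called 1801 higher and 1262 lower, against 741 and 299 with the numbers as labelled.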
